A study of Mus musculus with 75 samples.

Results

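The renin-angiotensin genes Agt, Ace, Enpep, Agtr1a and Agtr2 were followed in mouse lung from day 7 to day 42 after bleomycin. Their rows were found by symbol, and they are 5 of the 55536 genes in the count table. All 5 had a row, and 4 of the 5 passed the filter on low counts. Agtr2 did not. Enpep was lower on days 7 to 21 and did not pass the test from day 28 on. Agtr1a was called lower by a smaller amount on days 14, 21, 28 and 42. Ace was called lower on days 35 and 42 only, and Agt did not pass the test on any day. The Agtr1a calls of days 14, 28 and 42 and the Ace call of day 42 were lost when certain single mice were left out.

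RNA of the inferior lobe was sequenced in 75 male C57BL/6JRj mice, aged 12 to 14 weeks when bleomycin was given, with 1 library per mouse. Bleomycin is an antineoplastic agent that injures alveolar epithelium, and the bleomycin mice (BLEO-IPF) had received it once into the trachea, with no transgene or deleted gene in any group. Controls (CTRL) numbered 10. Lungs were taken from 10 BLEO-IPF mice at day 7, from 12 at each of days 14, 21, 28 and 35, and from 7 at day 42. The sample names call the controls saline, whereas the treatment description calls them untreated. Mice entered the BLEO-IPF groups only if their weight loss on day 6 was mild to moderate, which limits the groups to mice that responded within that range. Total counts were 9240291 to 14665247 per mouse (median 10677163). The type 2 alveolar cell markers that define lung summed to 4643 to 22590 CPM in every mouse. CPM are counts per 1000000 counted reads after scaling between libraries.

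In the renin-angiotensin system, the protease renin cuts angiotensinogen, the product of Agt, into angiotensin I. Angiotensin-converting enzyme (Ace) then forms angiotensin II, which raises vascular tone and aldosterone secretion through the AT1 receptor (Agtr1a and, in rodents, also Agtr1b). Aminopeptidase A (Enpep) removes the first residue of angiotensin II and so forms angiotensin III, and the AT2 receptor (Agtr2) often opposes AT1 signaling. Angiotensin I made in the blood is known to be converted largely in the lung, where Ace sits on the capillary endothelium.

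The genes lie on 5 chromosomes of GRCm38. Agt (ENSMUSG00000031980) is on the minus strand of chromosome 8 from 124556534 to 124569706. Ace (ENSMUSG00000020681) is on the plus strand of chromosome 11 from 105967945 to 105989964. Enpep (ENSMUSG00000028024) is on the minus strand of chromosome 3 from 129269175 to 129332720. Agtr1a (ENSMUSG00000049115) is on the plus strand of chromosome 13 from 30336441 to 30382867, and Agtr2 (ENSMUSG00000068122) on the plus strand of chromosome X from 21484544 to 21489164. Genes overlapped 3 of the 5. The antisense gene Gm11651 touched exons of Ace but held 34 counts over all mice against 1209075 for Ace. Gm42628 and Gm48161 lay in introns of Enpep and Agtr1a with 2 and 78 counts.

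RefSeq promoter windows of 300 bases (250 before the start and 50 after it, GRCm38.p6) were found for 4 of the 5 genes, with none for Agtr1a. The windows of Ace and Enpep are shown because these genes carry the largest levels and the largest change. Ace has 2 entries, one at the 5′ end and one inside the gene, from which the short testis form of the enzyme is known to start, and the count row adds the reads of both. Capitals mark the 3 motifs searched on either strand, the TATA box (letters TATAAA), the GC box (letters GGGCGG) and the CCAAT box. Adjoining GC boxes can overlap.
Ace, 5′ start, chr11:105967698-105967997, plus strand: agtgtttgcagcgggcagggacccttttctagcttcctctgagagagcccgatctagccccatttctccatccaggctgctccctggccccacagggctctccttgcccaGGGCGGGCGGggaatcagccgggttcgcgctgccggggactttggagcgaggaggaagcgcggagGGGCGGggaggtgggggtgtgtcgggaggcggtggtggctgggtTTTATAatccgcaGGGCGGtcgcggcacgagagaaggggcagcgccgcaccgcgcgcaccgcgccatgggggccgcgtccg
Ace, internal start, chr11:105974939-105975238, plus strand: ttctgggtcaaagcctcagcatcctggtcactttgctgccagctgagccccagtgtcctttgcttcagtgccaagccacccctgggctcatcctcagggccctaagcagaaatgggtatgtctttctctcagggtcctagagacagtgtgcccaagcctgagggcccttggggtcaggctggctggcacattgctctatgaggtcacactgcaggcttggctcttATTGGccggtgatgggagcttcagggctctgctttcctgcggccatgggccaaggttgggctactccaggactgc
Enpep, chr3:129332700-129332999, minus strand: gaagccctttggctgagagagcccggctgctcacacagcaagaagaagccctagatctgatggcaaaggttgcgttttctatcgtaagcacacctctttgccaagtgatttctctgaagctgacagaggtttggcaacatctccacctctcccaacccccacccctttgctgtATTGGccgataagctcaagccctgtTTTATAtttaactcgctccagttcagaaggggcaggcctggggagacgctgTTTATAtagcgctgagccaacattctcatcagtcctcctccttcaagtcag
The 5′ window of Ace held 1 TATA box and 4 GC boxes, whereas the internal window held neither and 1 CCAAT box. The Enpep window held 2 TATA boxes and 1 CCAAT box. Among all 32851 promoter windows of this length, 13.6% held the TATA box, 35.7% the GC box and 37.4% the CCAAT box. These are matches of letters only.

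Levels were compared between genes per kilobase of annotated exon. In CTRL mice the mean level of Ace was 295 ± 27.5 CPM per kb (SD, n = 10), that of Enpep 48.1 ± 3.83, that of Agtr1a 6.92 ± 1.28, that of Agt 0.337 ± 0.124 and that of Agtr2 0.00695 ± 0.0149. Ace was 6.13 times as high as Enpep, and Enpep 6.95 times as high as Agtr1a. The enzymes were thus read at far higher levels than the receptors or the precursor, and the last 2 genes were at the edge of detection at this depth.

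Each day was compared with CTRL in 1 edgeR quasi-likelihood fit of all 75 mice, with Benjamini-Hochberg adjustment over the 16221 genes tested and a threshold of 0.05. All 6 comparisons share the same CTRL mice, so they are not independent. The labels give no day of harvest for CTRL mice, so age at harvest and time after bleomycin cannot be told apart. No member was called higher on any day, where, in order of days, 24.8%, 32.4%, 28.3%, 24.1%, 16.9% and 13.7% of all genes tested were called higher. Of the 4 members tested, Enpep was called lower on days 7, 14 and 21, Agtr1a on days 14, 21, 28 and 42, and Ace on days 35 and 42. The 6 days thus had 1, 2, 2, 1, 1 and 2 members called lower of 4, and the share of all genes called lower was 21%, 29.9%, 25.8%, 19.2%, 13.1% and 11%. With 4 genes, such counts do not set the members apart from other genes. In whole lung RNA, fewer cells of a type and less RNA per cell cannot be told apart.

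**Figure D1:**
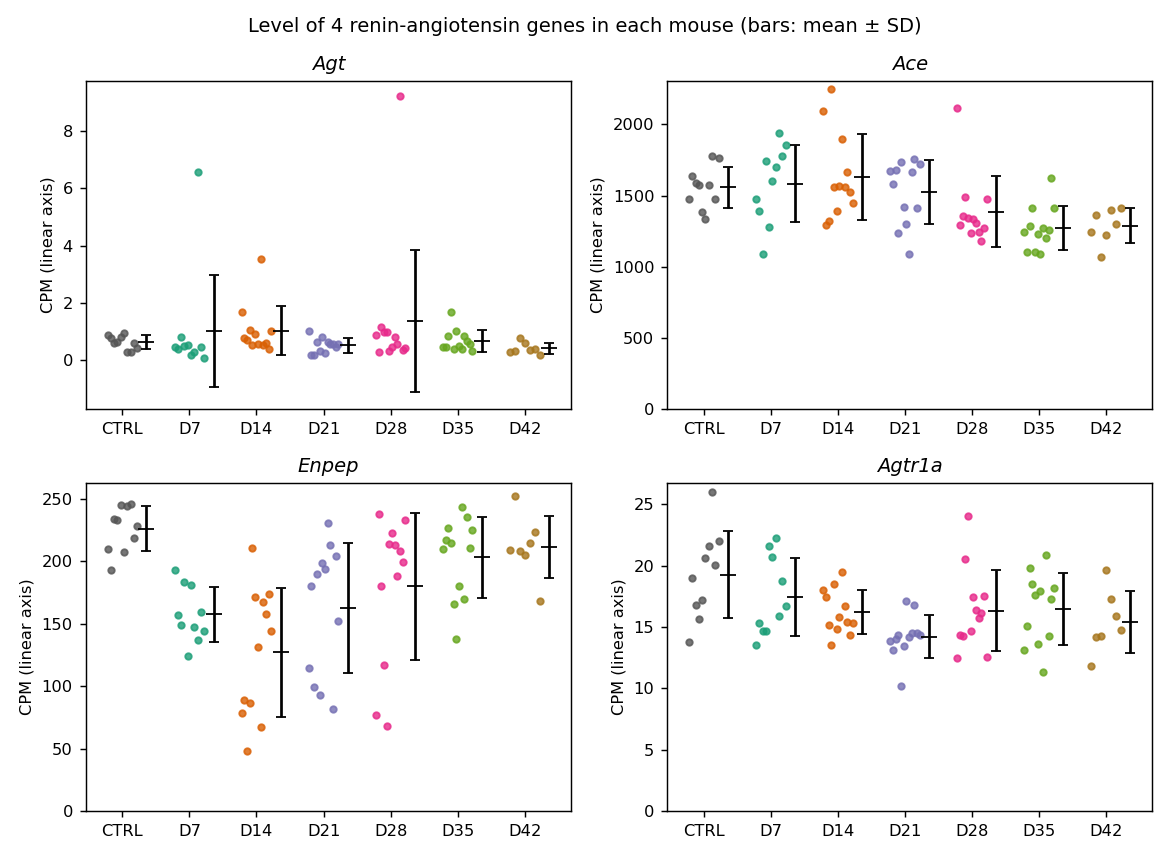
Level of Agt, Ace, Enpep and Agtr1a in CPM (linear axes) in each of the 75 mice by group, with 1 point a mouse and bars for the mean ± SD of the group. Enpep on day 14 spread from 48.1 to 211 CPM against 193 to 246 CPM in CTRL, and Agt stood apart in 1 mouse on day 7, 1 on day 14 and 1 on day 28.

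Agt encodes the precursor of all angiotensins and is made mainly in liver and also in adipose tissue. In CTRL mice its counts ranged from 3 to 12 (median 6.5), a mean level of 0.636 ± 0.234 CPM (SD, n = 10). Counts spanned 1 to 79 on day 7, 5 to 42 on day 14, 2 to 10 on day 21, 3 to 92 on day 28, 4 to 18 on day 35 and 2 to 9 on day 42, with medians of 5, 8.5, 6.5, 7, 6 and 4. The medians of all groups thus lay within the CTRL range, and the wide groups were wide through single mice: the second highest mouse of days 7, 14 and 28 had 10, 17 and 12 counts.

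The log2 fold change (log2FC) of Agt against CTRL took the values 0.70 ± 0.51 (SE), 0.68 ± 0.49, -0.29 ± 0.52, 1.08 ± 0.49, 0.10 ± 0.51 and -0.56 ± 0.63 in order of days. Adjusted p was 0.0652 on day 28 (edgeR) and 0.226 or above on the other days. The 95% interval on day 42 ran from -1.81 to 0.69 and so allows a change of either sign. By mean CPM the order was day 28, days 7 and 14, day 35, CTRL, day 21 and day 42, and no 2 neighbours differed at the threshold. The places of days 28 and 7 in this order rest on 1 mouse each.

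The mice with 79 and 92 Agt counts also carried adipocyte markers. The 6 markers (Adipoq, Plin1, Cidec, Lep, Cfd and Ucp1) summed to 793.6 CPM in the day 7 mouse and to 1769 CPM in the day 28 mouse, where CTRL mice ranged from 10.65 to 54.45 CPM. Of the 4 adipocyte markers tested, 3 were called higher and none lower on day 28, although the median sum of that day was 5.57 CPM, below the lowest CTRL mouse. Of the same 4, 2 were called lower on day 14 and all 4 on day 21. Ucp1 was at or near 0 in every group, with a highest level of 0.902 CPM. The same day 28 mouse had the highest heart muscle marker sum of that day, 2254 CPM against at most 276 CPM in CTRL. Without these 2 mice the log2FC of Agt against CTRL was -0.59 (adjusted p = 0.173) on day 7 and 0.0447 (adjusted p = 0.924) on day 28, and on day 14 it was 0.68 with an adjusted p of 0.0418 (edgeR), against 0.226 with them. Agt was then also higher on day 14 than on day 7 (log2FC 1.27, adjusted p = 0.00438) and lower on day 42 than on day 14 (-1.24, adjusted p = 0.00502), differences that did not pass with all mice. The day 14 values included the mouse with 42 counts, whose adipocyte marker sum was 24.7 CPM, the highest of the 12 mice of day 14 (median 6.1 CPM) and within the CTRL range. With all other mice kept, leaving out 1 mouse moved the log2FC of day 14 to as low as 0.32.

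Across all mice, with each group's mean taken away from log2(CPM + 0.1), Agt and the adipocyte sum had a Pearson r of 0.627 (permutation within groups, p = 0.00015, adjusted p = 0.000992 over 62 relations). Spearman's rho of ranks within groups was 0.284 (adjusted p = 0.0998), and r without the 2 mice farthest from the median of Agt was 0.269. The pooled r thus rests largely on single mice. By group it was -0.103 in CTRL and then 0.788, 0.484, 0.203, 0.764, 0.45 and 0.941 in order of days, positive in 6 of 7 groups, among them groups without the 2 adipocyte-rich mice.

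**Figure D2:**
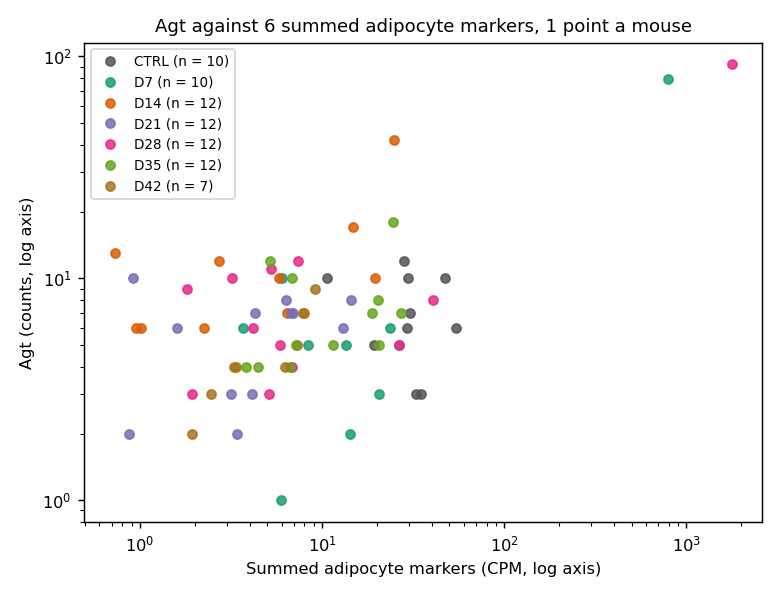
Agt counts (log axis) against the summed level of 6 adipocyte markers in CPM (log axis), 1 point a mouse, colored by group. The day 7 mouse at 79 counts and the day 28 mouse at 92 counts stand to the right of all other mice, and the day 14 mouse at 42 counts does not.

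Ace, the converting enzyme, was the member with the highest level and was lower only late. CTRL mice ranged from 1337 to 1781 CPM (median 1572, mean 1559 ± 145, SD, n = 10). Day 7 mice ranged from 1087 to 1938 CPM (median 1651), day 14 mice from 1291 to 2245 (median 1560) and day 21 mice from 1087 to 1760 (median 1626). Up to day 21 the BLEO-IPF mice thus lay on both sides of the CTRL median, with a wider spread.

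Day 28 mice ranged from 1180 to 2114 CPM (median 1323), day 35 mice from 1093 to 1626 (median 1250) and day 42 mice from 1067 to 1415 (median 1303). Below the lowest CTRL mouse lay 7 of 12 mice on day 28, 9 of 12 on day 35 and 4 of 7 on day 42. The groups still overlapped on each of these days.

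From day 7 to day 28 the log2FC of Ace took the values 0.02 ± 0.10, 0.07 ± 0.09, -0.03 ± 0.09 and -0.17 ± 0.09 (adjusted p = 0.864, 0.548, 0.778 and 0.131, edgeR). It was -0.29 ± 0.09 on day 35 (adjusted p = 0.00963), which is 0.815 times the CTRL level, and -0.27 ± 0.11 on day 42 (adjusted p = 0.0473). On day 14 the 95% interval of the log2FC ran from -0.12 to 0.25 and did not reach the value of day 35. The day 42 call was lost when any of 7 single mice was left out, day 42 mouse 1, 3, 4 or 6 or CTRL mouse 2, 8 or 10 (adjusted p up to 0.121).

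Ordered by mean CPM, Ace ran from day 14 through day 7, CTRL, day 21 and day 28 to day 42 and day 35, and no 2 neighbours in that order differed at the threshold. Between days, Ace was lower on day 28 than on day 14 (log2FC -0.23, adjusted p = 0.0408), lower on day 35 than on day 7 (-0.32, 0.00695), day 14 (-0.36, 6.61e-04) and day 21 (-0.26, 0.0275), and lower on day 42 than on day 7 (-0.30, 0.0395) and day 14 (-0.34, 0.00737; all edgeR). The decline of Ace was therefore a difference between early and late days as well as from CTRL.

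Endothelial markers moved in another order. Of the 10 endothelial markers (Pecam1, Cdh5, Cldn5, Kdr, Tek, Emcn, Tie1, Car4, Plvap and Vwf), 6 fell on day 7, 8 on day 14, 7 on each of days 21 to 35 and 4 on day 42, and their sum was 3053 to 5078 CPM on day 14 and 3043 to 5257 CPM on day 35 against 4689 to 6485 CPM in CTRL. Ace was not lower on day 14, when 8 of these markers were. The 3 genes most like Ace over the 75 mice, by Pearson r of log2 CPM among 13105 genes, were Slco2a1, a prostaglandin transporter (r = 0.83), Vwf, the endothelial glycoprotein von Willebrand factor (r = 0.779), and Luzp1 (r = 0.771). Within groups the r values were 0.805, 0.78 and 0.766. Vwf itself rose on day 14 (log2FC 0.56 ± 0.14, adjusted p = 4.50e-04) and day 21 (0.41 ± 0.14, adjusted p = 0.0109). The points of these correlations share a library, and no p is given.

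Of the summed marker lists, the one most positively related to Ace within groups was that of pericytes, the contractile cells of capillaries (r = 0.465, permutation p = 0.00016, adjusted p = 0.000992; rho = 0.443, adjusted p = 0.00227; r = 0.422 without the 2 farthest mice). It was positive in all 7 groups, from 0.124 on day 35 to 0.712 on day 21. With the endothelial sum, r was 0.272 (adjusted p = 0.0671). Ace also rose with the fibroblast, smooth muscle and macrophage sums (r = 0.394, 0.386 and 0.379, permutation adjusted p = 0.0069, 0.00963 and 0.00639). It ran against the type 2 alveolar and the club and ciliated sums (r = -0.401 and -0.393, permutation adjusted p = 0.00664 and 0.00963). By rho, none of these further relations passed an adjusted p of 0.05. The part of cell makeup in the level of Ace was not tested.

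**Figure D3:**
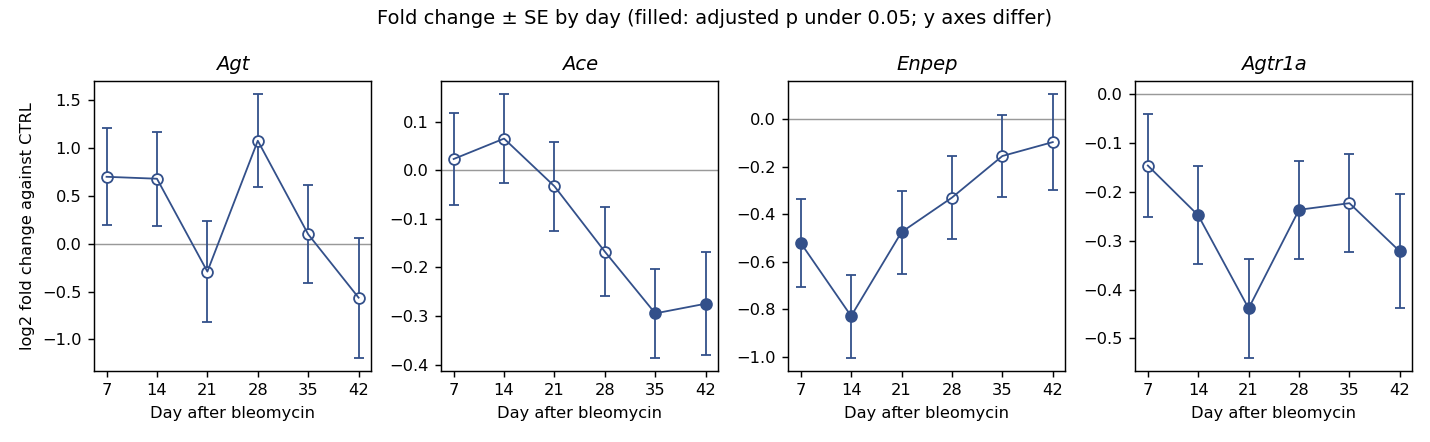
Log2FC against CTRL (± SE, from the edgeR fit) by day after bleomycin for Agt, Ace, Enpep and Agtr1a, with filled points for adjusted p under 0.05 and y axes that differ between genes. Enpep is lowest on day 14 at -0.83, Agtr1a on day 21 at -0.44 and Ace on day 35 at -0.29.

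Enpep, which turns angiotensin II into angiotensin III, showed the largest change among the members called. CTRL mice were tightly grouped, from 193 to 246 CPM (median 231, mean 226 ± 18, SD, n = 10). Day 7 mice ranged from 125 to 193 CPM (median 153), day 14 mice from 48.1 to 211 (median 138) and day 21 mice from 81.4 to 230.5 (median 185). All 10 mice on day 7 and 11 of 12 on day 14 lay below the lowest CTRL mouse. On day 7 the groups all but met, with the highest mouse at 193.42 CPM and the lowest CTRL mouse at 193.44 CPM.

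Day 28 mice ranged from 68.3 to 238 CPM (median 204), day 35 mice from 138 to 244 (median 213) and day 42 mice from 168 to 253 (median 209). Below the lowest CTRL mouse lay 7 of 12 on day 21, 5 of 12 on day 28, 4 of 12 on day 35 and 1 of 7 on day 42. The spread between mice was 8.0% of the mean in CTRL and 40.6% on day 14, so BLEO-IPF mice of the same day differed widely.

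The log2FC of Enpep was -0.52 ± 0.18 on day 7 (adjusted p = 0.0159, edgeR), -0.83 ± 0.18 on day 14 (3.81e-05) and -0.48 ± 0.17 on day 21 (0.0176), which put day 14 at 0.563 times CTRL. On day 28 it was -0.33 ± 0.17 (adjusted p = 0.12), on day 35 -0.16 ± 0.17 (0.54) and on day 42 -0.10 ± 0.20 (0.768). The interval on day 42, -0.50 to 0.31, still allows a difference of either sign. The 3 calls held in every refit that left out 1 mouse.

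From day 14, Enpep was higher on day 28 (log2FC 0.50, adjusted p = 0.0233), day 35 (0.67, 9.13e-04) and day 42 (0.73, 0.00205; edgeR). Ordered by mean CPM it ran from CTRL through days 42, 35, 28, 21 and 7 to day 14, and no 2 neighbours differed at the threshold. Ace and Enpep, both peptidases of angiotensins, thus differed in opposite directions between day 14 and days 28, 35 and 42.

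Marker sums moved with Enpep from mouse to mouse. On day 14 the mouse with the lowest Enpep, 48.1 CPM, had 4163 CPM of Col1a1, the main fibrillar collagen chain, and 4065 CPM of Sftpc, surfactant protein C of type 2 alveolar cells. The mouse with the highest, 211 CPM, had 1444 CPM of Col1a1 and 12870 CPM of Sftpc. On day 28, the 3 mice with the lowest Enpep, 68.3, 77.2 and 117 CPM, were also those with the lowest type 2 alveolar sums, 8825, 8267 and 11120 CPM.

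Within groups, Enpep and the sum of 6 type 2 alveolar markers (Sftpc, Lamp3, Abca3, Napsa, Etv5 and Slc34a2) had r = 0.842 (permutation within groups, p = 1e-05, the smallest these 100000 permutations can give) and rho = 0.544 (adjusted p = 0.00093), and r = 0.829 without the 2 farthest mice. By group r was -0.196 in CTRL and then 0.143, 0.898, 0.929, 0.903, 0.608 and 0.719 in order of days. The r values were higher from day 14 on than on day 7 and in CTRL, and this difference in r was not tested. Most of the sum was Sftpc, with 4065 of 5274 CPM in the day 14 mouse with the lowest Enpep. In the day 14 mouse with the highest Enpep, Sftpc was 12870 of 16950 CPM.

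With the sum of 8 fibroblast markers, among them Col1a1 and Col1a2, r was -0.84 (permutation p = 1e-05), rho was -0.48 (adjusted p = 0.00165) and r without the 2 farthest mice was -0.817. By group it ran from -0.952 on day 21 to 0.46 on day 7. Most of this sum on day 14 was collagen: Col1a1 and Col1a2 rose (log2FC 2.90 and 2.30), as did Pdgfra (0.38), whereas Tcf21, Npnt and Pi16 fell (-0.98, -0.49 and -0.46) and Col13a1 and Dcn were not called, with a list median of -0.10. With the macrophage sum r was -0.612 (permutation p = 1e-05) and it was negative in all 7 groups, with rho = -0.45 (adjusted p = 0.00198) and r = -0.575 without the 2 farthest mice.

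The type 2 alveolar list itself had 4 of 6 markers lower on day 14 and none lower on days 21 to 42, and its sum was 4643 to 16950 CPM on day 14 against 15910 to 19530 CPM in CTRL. Enpep was lower on day 7, when 1 of the 6 was lower and 1 higher, and on day 21, when none was lower and 1 was higher. Of the 7 macrophage markers, 5, 6 and 7 rose on days 7, 14 and 21. The part of these cell types in the level of Enpep was not tested.

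The 3 genes most like Enpep were Dpp4, a dipeptidyl peptidase of the cell surface (r = 0.95), Tmem163, a zinc transporter (r = 0.941), and Ppp1r14c, an inhibitor of protein phosphatase 1 (r = 0.931). Within groups the r values were 0.932, 0.924 and 0.899, the highest of any member. These r values describe 75 mice with shared libraries and carry no p.

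**Figure D4:**
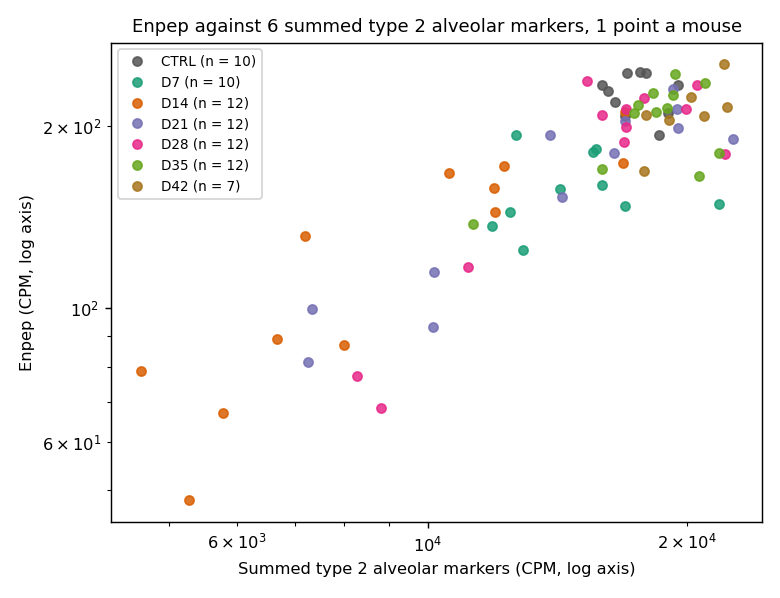
Enpep in CPM (log axis) against the summed level of 6 type 2 alveolar cell markers in CPM (log axis), 1 point a mouse, colored by group. Mice of days 14, 21 and 28 run from low to high on both axes, down to 48.1 CPM of Enpep, whereas CTRL mice stay between 193 and 246 CPM.

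Agtr1a encodes the main AT1 receptor of rodents, through which angiotensin II acts on vessels and mesenchymal cells. CTRL mice ranged from 13.8 to 25.98 CPM (median 19.5, mean 19.3 ± 3.56, SD, n = 10), or 153 to 272 counts. Day 7 mice ranged from 13.6 to 22.3 CPM (median 16.3), day 14 mice from 13.6 to 19.5 (median 15.6) and day 21 mice from 10.2 to 17.1 (median 14.3). At most 3 of 12 mice lay below the lowest CTRL mouse on any of these days, so the groups overlapped.

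Day 28 mice ranged from 12.4 to 24.1 CPM (median 15.96), day 35 mice from 11.3 to 20.9 (median 17.5) and day 42 mice from 11.8 to 19.6 (median 14.8). On no day did a BLEO-IPF mouse exceed the highest CTRL mouse. CTRL mice spanned the widest range of any group.

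The log2FC of Agtr1a was -0.15 ± 0.10, -0.25 ± 0.10, -0.44 ± 0.10, -0.24 ± 0.10, -0.22 ± 0.10 and -0.32 ± 0.12 in order of days, with adjusted p of 0.254, 0.0273, 1.84e-04, 0.0494, 0.0843 and 0.0349 (edgeR). Day 21 was at 0.738 times CTRL and was lower than day 7 (log2FC -0.29, adjusted p = 0.0399). The day 21 call held in every refit that left out 1 mouse. Its call for day 14 was lost without CTRL mouse 8 or 10 (adjusted p up to 0.0979), and the calls of days 28 and 42 were lost without any of 12 and 7 single mice (adjusted p up to 0.152 and 0.0911).

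Ordered by mean CPM, Agtr1a ran from CTRL through days 7, 35, 28, 14 and 42 to day 21, with no difference between neighbours at the threshold. The 3 genes most like it were Gprc6a, a receptor for amino acids (r = 0.638), Angpt1, a ligand of the endothelial receptor Tie2 (r = 0.612), and Cdo1, cysteine dioxygenase (r = 0.602), with 0.533, 0.52 and 0.489 within groups. None of its relations to the 14 marker sums within groups passed an adjusted p of 0.05 (highest r 0.182, lowest -0.221). Of the 8 pericyte markers, 3 rose and 2 fell on each of days 14 and 21. Agtr1b, the near-identical second AT1 gene of rodents, had 0 to 14 counts per mouse, and how reads shared by both were counted is not given in the sources used here.

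Agtr2, the AT2 receptor, known for its high level in fetal tissue, was at the floor. It had 27 counts over all 75 mice, with at most 2 per mouse in CTRL and at most 3 in any mouse (on day 14). Between 2 and 5 mice of each group held any count. Where a mouse had 0 counts, up to 3 counts per library could have been missed, so no fold change is given, and with the filter lifted its adjusted p was 0.527 to 1 over the 6 days (edgeR).

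The rest of the pathway was taken from 32 further genes, 31 of them in the table and 21 tested. Of these 21, 10, 12, 12, 8, 10 and 7 rose and 5, 4, 4, 4, 2 and 1 fell, in order of days (edgeR). All genes tested were called higher in 24.8%, 32.4%, 28.3%, 24.1%, 16.9% and 13.7% and lower in 21%, 29.9%, 25.8%, 19.2%, 13.1% and 11%, so the numbers that fell were near or under the share of all genes. The median log2FC of the 21 was 0.20, 0.16, 0.24, 0.15, 0.15 and 0.15 from day 7 to day 42, and the median of all genes tested was between -0.002 and 0.018. The list was drawn up with earlier results of these data known, so these counts are description only.

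Renin was hardly read in the lung. Ren1 had no count in any CTRL, day 35 or day 42 mouse and at most 2 in any other. Atp6ap2, the (pro)renin receptor, rose from day 14 (log2FC 0.33 ± 0.07, adjusted p = 1.12e-05) and was still higher on day 42 (0.26 ± 0.07, adjusted p = 0.0068). Mas1, the receptor of angiotensin 1-7, had no count in CTRL and at most 2 in any mouse.

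Of the other peptidases, some rose and some fell. Ctsd, cathepsin D, a lysosomal protease that can cut angiotensinogen, had 244 to 307 CPM in CTRL and 873 to 1351 CPM on day 14, and its log2FC was 1.23 ± 0.20 on day 7 and peaked at 2.12 ± 0.20 on day 21 (adjusted p = 3.41e-14). It is also abundant in macrophages, 5 to 7 of whose 7 markers rose on every day, with sums of 901 to 2693 CPM on day 14 against 389 to 861.5 CPM in CTRL. The part of macrophages in Ctsd was not tested. Mme, neprilysin, which forms angiotensin 1-7 from angiotensin I, fell on days 7 to 35 (log2FC -0.88 ± 0.17 on day 14, adjusted p = 7.37e-06). Cma1, the mast cell chymase that can form angiotensin II, fell on days 14 and 21 (-1.47 ± 0.41 and -1.37 ± 0.41, adjusted p = 0.00139 and 0.00338, edgeR). Its counts were low, at 7 to 21 per mouse in CTRL, 0 to 9 on day 14 and 0 to 8 on day 21. Mcpt4, also in the mast cell list, was not called on either day (-0.11 and 0.40). Prcp and Ctsa, lysosomal carboxypeptidases, rose on all 6 days (Ctsa 1.04 on day 14, Prcp 0.68).

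**Figure D5:**
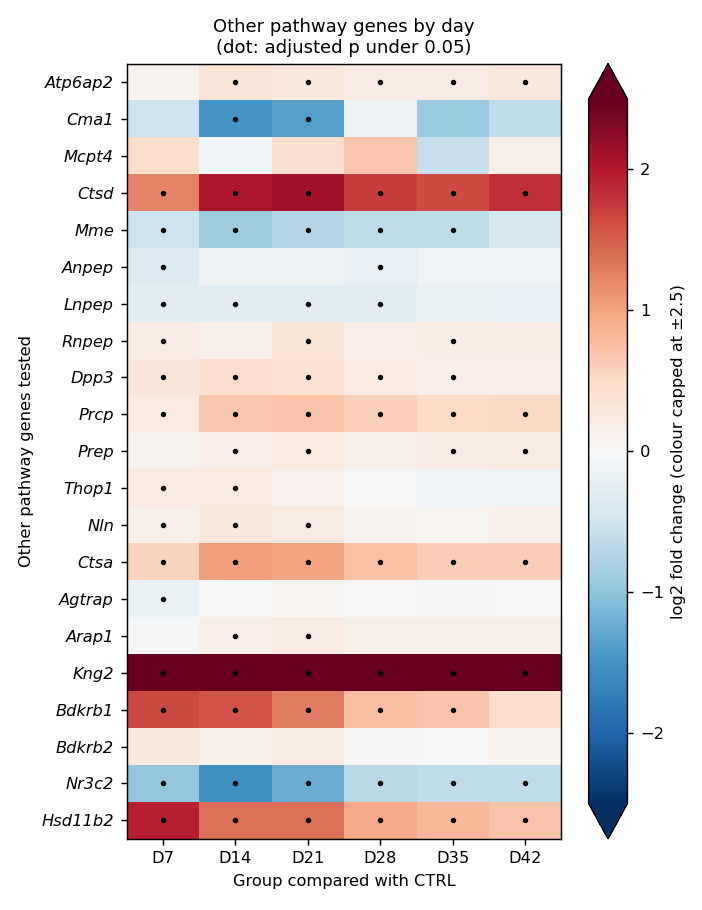
Log2FC against CTRL of the 21 other pathway genes tested (rows) on the 6 days (columns), in color from blue (lower) to red (higher) capped at ±2.5, with a dot for adjusted p under 0.05. Nr3c2 is lower and Ctsd, Prcp, Ctsa, Kng2 and Hsd11b2 higher in all 6 columns.

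The kinin and mineralocorticoid sides also changed. Kng2, a kininogen, had at most 0.669 CPM in CTRL and 1.01 to 21.6 CPM on day 35, with a log2FC of 2.65 ± 0.68 on day 7 and 5.18 ± 0.63 on day 35 (adjusted p = 1.51e-09). Its reads may be shared with its near-identical paralog Kng1, which was below the filter. Bdkrb1, the kinin B1 receptor, rose on days 7 to 35 (log2FC 1.65 ± 0.25 on day 7), and Bdkrb2, the B2 receptor, was not called on any day (at most 0.26). Hsd11b2, which inactivates corticosterone, rose on all 6 days, from 1.42 to 3.42 CPM in CTRL to 6.37 to 8.80 CPM on day 7 with no overlap (log2FC 1.95 ± 0.22, adjusted p = 7.93e-11). Nr3c2, the mineralocorticoid receptor, fell on all 6 days, most on day 14 (-1.54 ± 0.14, adjusted p = 2.51e-14).

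Between days, the share of all genes called in either direction was 17% for day 14 against day 7, 13.9% for day 21 against day 7, 17.9% for day 28 against day 7, 24.1% for day 35 against day 7 and 17.8% for day 42 against day 7. Against day 14 it was 1.03% for day 21, 24.5% for day 28, 43% for day 35 and 34% for day 42. It was 0.727% for day 28, 18.3% for day 35 and 9.4% for day 42 against day 21, 1.27% for day 35 and 0.869% for day 42 against day 28, and 0% for day 42 against day 35. In the last comparison edgeR gave 957 genes an unadjusted p under 0.05, and DESeq2 called 0 genes with 1237 at that level. Members were called in 10 of 60 such tests, Ace in 6, Enpep in 3 and Agtr1a in 1.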

How the data were processed

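The authors isolated RNA from the inferior lobe, prepared directional libraries, aligned reads with STAR 2.7.0f to GRCm38 (per the labels) and deposited raw counts per gene. The counting program and its treatment of strand and multiply mapped reads are not given in the sources used here. Symbols were found for 55450 of 55536 genes.

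Printed CPM are counts divided by the library's total over the genes kept by the filter, after that total was multiplied by its TMM factor. edgeR 4.0.16 (R 4.3.3) scaled libraries by TMM, kept genes by filterByExpr and fitted 7 group means. Genes of the pathway were named as the 2 largest changes called on each day plus Ren1 and Mas1, and others after their values were seen. A gene of the pathway list is not reported here and is in none of its counts. Similar genes used log2 CPM with a prior count of 2 and a mean above 1. Relations used 100000 permutations within groups and were added after the data were seen. Members and lists were chosen with earlier results of these data known. The labels do not say whether replicates shared cages or days, so p-values measure the spread between these mice. Duplicate libraries were not found by chi-square per degree of freedom (lowest 4.09). The fit was tested on simulated data. Alternatives included DESeq2 1.42.0. Intervals are 95% and floors, at 3 counts, cover counting error only. Tables and plots were made in Python 3.11.15 with scipy 1.17.1.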

Additional observations from a re-analysis of the deposited data

Results flagged for a closer look

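A total of 21 groups of up to 10 mice were searched for a single mouse far from the others by Dixon's criterion, and 2 stood out, where chance gives about 1 in 20. The highest day 7 mouse for Agt had 6.58 CPM, and the highest CTRL mouse for Hsd11b2 had 3.42 CPM. Days 14, 21, 28 and 35, with 12 mice each, were not searched. The mice with 42 and 92 Agt counts on days 14 and 28 could therefore not be flagged. Among 60 tests between BLEO-IPF days, 10 differences passed an adjusted p of 0.05 (edgeR). Agtr1a differed by a log2FC of -0.29 between days 21 and 7. Ace differed by -0.23 between days 28 and 14, by -0.32, -0.36 and -0.26 between day 35 and days 7, 14 and 21, and by -0.30 and -0.34 between day 42 and days 7 and 14. Enpep differed by 0.50, 0.67 and 0.73 between days 28, 35 and 42 and day 14.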

How the results depend on the processing

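The calls of Enpep on days 7, 14 and 21, of Agtr1a on day 21 and of Ace on day 35 held under every alternative. Comparisons between days were refit only for consecutive days and for day 42 against day 14. Agtr1a on day 14 lost its call without the filter on low counts (log2FC -0.25). Agtr1a on day 28 lost it with library size only (-0.22), upper quartile factors (-0.24), no filter (-0.24), only the 2 groups compared (-0.24), DESeq2 (-0.24) and without the 2 mice with adipocyte markers above CTRL (-0.23), and Agtr1a on day 42 lost it without the filter (-0.31). Ace on day 42 lost it without the filter (-0.27). Without the 2 mice, chosen after seeing the data, Agt was -0.59 on day 7 and 0.68 on day 14, now called, and Ace -0.0095 on day 7, while Agt turned to 1.27 for day 14 against day 7, now called (adjusted p = 0.00438, edgeR), and to 0.0561 for day 35 against day 28, and its -1.24 for day 42 against day 14 was called (0.00502). Ace for day 14 against day 7 was -0.0028 with library size only. Among the pathway genes, 3 instead of 1 were lower on day 42 with only the 2 groups compared, and 2 with the replicate block. The cause was not tested.

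With the replicate number as a block, Ace on day 42 was -0.25 (adjusted p = 0.0763, edgeR) and Agt for day 14 against day 7 was 0.35. In that fit 2 pathway genes instead of 1 were lower on day 42. No other call of a member changed among the comparisons refit. Same-numbered mice deviated together with a median correlation of 0.00574, against 0.00183 for mice of other numbers. The correlation was over 0.1 in 63 of 204 same-numbered pairs and in 556 of 2196 other pairs. Of 75 mice, 7 correlated best with their own number. Whether same-numbered mice shared a step of handling was not tested.

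Each comparison of a member with CTRL was refit without 1 mouse at a time. Of these refits, 7 reversed the sign, 7 added a call, 28 lost one and 458 stayed as they were. The ranges were -0.59 to 0.83 for Agt and -0.0132 to 0.0646 for Ace on day 7, -0.29 to -0.19 for Agtr1a on day 14, 0.0447 to 1.18 for Agt, -0.24 to -0.14 for Ace and -0.30 to -0.18 for Agtr1a on day 28, -0.10 to 0.17 for Agt and -0.27 to -0.16 for Agtr1a on day 35, and -0.31 to -0.23 for Ace and -0.40 to -0.26 for Agtr1a on day 42. Agt on day 28 passed the threshold without any of day 28 mice 2, 6, 7 or 11 and was 0.0447 without the mouse with 92 counts. Ace on day 28 passed it without day 28 mouse 1, and Agtr1a on day 35 without CTRL mouse 1 or day 35 mouse 9.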

Other observations

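Within groups, Enpep also followed the type 1 alveolar marker sum (r = 0.665, permutation p = 1e-05, the smallest possible). Its rho was 0.376 (adjusted p = 0.0158), and r was 0.57 without the 2 farthest mice. Enpep was related more strongly to 2 lists of other cells, with r = -0.746 for smooth muscle and r = 0.718 for mast cells (permutation p = 1e-05 for both). There rho was -0.456 (adjusted p = 0.00198) and 0.507 (adjusted p = 0.00093). In CTRL the mast cell sum was 248.6 to 312.1 CPM, of which Cma1, Mcpt4 and Cpa3 gave at most 1.43, 0.875 and 0.835 CPM. Fcer1a and Tpsb2 were below the filter, so this sum was mostly Kit and need not stand for mast cells. The relations of Enpep were not particular to alveolar lists, given that to smooth muscle. Ace ran against the lymphocyte sum of Cd3e, Cd79a, Ms4a1 and Nkg7 (r = -0.534, permutation p = 1e-05; rho = -0.336, adjusted p = 0.0427; r = -0.484). The genes most like Agt over 75 mice were H2-Q10, a class Ib histocompatibility gene with near-identical relatives (r = 0.62), Slc2a4, the insulin-responsive glucose transporter (r = 0.604), and Plin4, a lipid droplet protein (r = 0.583).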
